A study of Mus musculus with 8 samples.

Results

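A chimera of the muscle factor MyoD, in which the DNA-binding domain had been exchanged for that of the neuronal factor NeuroD2, was set against MyoD itself. The comparison takes 2 of the 8 libraries of the study, 1 for each construct, and covers all 15547 genes that reached 1 CPM (a gene's counts scaled to library size) in at least 1 of the 8 libraries. Both libraries came from P19 cells, a mouse embryonal carcinoma line, that had received a lentivirus in the presence of polybrene and were then kept in Neurobasal medium with B27 and glutamine until harvest. One culture carried MyoD and the other the MD(ND2bHLH) chimera, and the labels give neither a multiplicity of infection (MOI) nor a harvest time for them. Libraries transduced with GFP, with NeuroD2 and with the same chimera at MOI 100 supply reference levels. With 1 library a side there is no replicate, so no test was made and every interval covers counting error only. In bulk RNA, fewer responding cells and less RNA per cell cannot be told apart.

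Basic helix-loop-helix (bHLH) factors bind the short DNA sequence called an E-box as dimers with the widely made E-proteins. The basic region touches the DNA and the helix-loop-helix holds the dimer together. MyoD starts the skeletal muscle program, acting with myogenin and the MEF2 factors, and NeuroD2 acts in a cascade of bHLH factors that drives neurons to differentiate. The study asked which lineage follows when one of these domains is placed in the other protein.

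The delivered factors followed the labels. Myod1 (ENSMUSG00000009471) stood at 296 CPM in the MyoD library (7713 counts) and at 116 CPM in the chimera library (3069 counts), against 0.68 CPM in GFP. The chimera thus held 2.56-fold less Myod1 (95% interval 2.46 to 2.67). Its coding sequence lacks the exchanged domain of Myod1, so the gene count can understate the amount delivered. Neurod2 (ENSMUSG00000038255) had 0 counts in MyoD and 367 counts, or 13.8 CPM, in the chimera. With MyoD set to a floor of 3 counts this is 120-fold higher (40.75 to 584.7). Neurod2 stood at 2.5 CPM in GFP, so the chimera was much closer to GFP than this ratio over MyoD shows. Construct and amount of factor cannot be told apart in this pair. None of the 3 E-protein genes met the size rule given below. Tcf3 stood at 243 CPM in MyoD and 229 CPM in the chimera, Tcf12 at 276 and 213 CPM, and Tcf4 at 163 and 102.5 CPM, 1.59-fold lower (1.52 to 1.67).

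By size, 220 genes were higher in the chimera and 297 lower. The size rule asked for a 4-fold difference or more between the 2 values of CPM + 0.5, and for 5 CPM in the higher library. These counts are 1.42% and 1.91% of the tested genes, or 3.33% in either direction, and they are the background for every count by this rule below. The median log2 ratio of all tested genes was 0.03. It was above 0 in 8273 genes and below 0 in 7264, which is the background for counts by sign. Among the genes that met the rule, the median difference was 6.98-fold in those higher and 7.58-fold in those lower. Past 16-fold were 29 genes higher and 54 lower in the chimera.

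**Figure D1:**
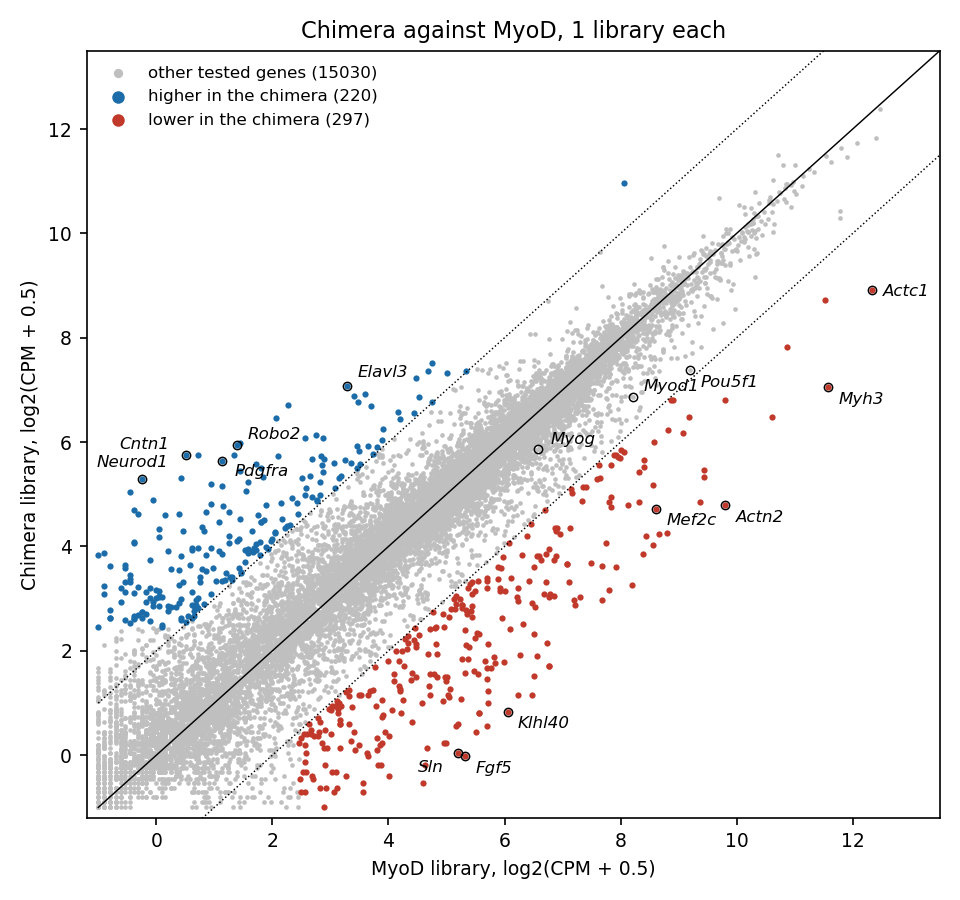
Each point is 1 tested gene, with log2(CPM + 0.5) in the MyoD library on the x axis and in the chimera library on the y axis. The solid line marks equal levels and the dotted lines 4-fold. Blue and red points are the 220 higher and 297 lower genes, and the circled muscle genes Actc1, Myh3, Actn2, Mef2c, Klhl40 and Sln lie below the lower dotted line while Myog lies between the dotted lines.

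The 3 marker genes of the comparison were all lower. Sln (ENSMUSG00000042045), sarcolipin, an inhibitor of the muscle calcium pump, stood at 36.0 CPM in MyoD (938 counts) and 0.527 CPM in the chimera (14 counts). Klhl40 (ENSMUSG00000074001), a protein that stabilises thin filaments, stood at 65.9 and 1.28 CPM. Mef2c (ENSMUSG00000005583), a transcription factor that works with the myogenic bHLH proteins, stood at 391.7 and 26.0 CPM, or 15.1-fold lower (13.95 to 16.3). Each of the 3 was still above its GFP level, which was 0 CPM for Sln, 0.0486 CPM for Klhl40 and 0.949 CPM for Mef2c.

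Sarcomere genes, the parts of the contractile unit, were lower as a group. Of 81 measured members of the sarcomere lists, 55 (67.9%) met the rule as lower and 0 as higher, with a median log2 ratio of -3.39. The log2 ratio was below 0 in 76 of the 81. The summed level of these genes was 22220 CPM in MyoD, 2650 CPM in the chimera and 1561 CPM in GFP. Of the 81, 64 (79.0%) were further below MyoD than Myod1 itself was, against 680 of all 15547 tested genes (4.37%). The lists were chosen with earlier results of these data known, and the Myod1 count can understate the amount delivered. These shares are a description, and the part of factor amount was not tested.

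Among myosin chains and their binding proteins, the motor of the thick filament, 18 of 22 were lower. Mylk4, a myosin light chain kinase family member, stood at 88.2 CPM in MyoD and 1.73 CPM in the chimera, 50.9-fold lower (38.01 to 69.7). The embryonic heavy chain gene Myh3 stood at 3060 and 132 CPM, 23.2-fold lower (22.4 to 24.0). The perinatal heavy chain Myh8 stood at 221 and 8.51 CPM and the slow and cardiac heavy chain Myh7 at 346 and 17.9 CPM. Reads of the near-identical myosin heavy chains may be shared between these genes, since the counting of such reads is not given in the sources used here. Outside the rule were Myh7b, Mybpc2, Hspb8 and Myh14, of which Myh14, a non-muscle myosin, stood at 1.61 and 1.92 CPM.

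Among actins, tropomyosins and troponins, which form and switch the thin filament, 14 of 20 were lower. Actc1, the cardiac and embryonic sarcomeric actin, stood at 5163 CPM in MyoD and 481 CPM in the chimera, against 42.3 CPM in GFP. The slow troponins Tnnc1 (293 and 9.04 CPM) and Tnni1 (375 and 15.8 CPM) were lower, and so were the fast troponins Tnni2 (45.9 and 2.45 CPM) and Tnnt3 (115 and 12.9 CPM). Slow and fast isoforms thus lay on the same side. Tpm1, a tropomyosin also made outside muscle, stood at 774 and 286 CPM and did not meet the rule.

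Of 39 genes of titin, the Z-disc and the M-band, which anchor and align the filaments, 23 were lower. Actn2, the Z-disc crosslinker alpha-actinin, stood at 895 CPM in MyoD and 27.1 CPM in the chimera, 33.0-fold lower (30.6 to 35.6). Myot, the Z-disc protein myotilin, stood at 45.1 and 0.867 CPM, and Myom3, an M-band protein, at 108 and 2.75 CPM. Ttn, the giant spring protein titin, was much closer, at 598 and 209 CPM, or 2.86-fold lower (2.77 to 2.95). Fbxo32, a ubiquitin ligase of muscle wasting, stood at 10.2 and 18.6 CPM, on the other side of equality.

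Calcium handling and the synapse on muscle showed the same direction. Of 31 excitation-contraction coupling genes, 15 were lower and 0 higher, with a median of -1.76. Stac3, a partner of the voltage sensor, stood at 56.2 CPM in MyoD and 3.2 CPM in the chimera, and Cacna1s, the voltage sensor itself, at 31.4 and 2.19 CPM. Atp2a1, the fast-muscle calcium pump that Sln inhibits, was 4.32-fold lower (4.15 to 4.5), at 480 and 111 CPM. Of 15 neuromuscular synapse genes 9 were lower, with a median of -3.06. Chrna1, the acetylcholine receptor alpha subunit, was 37.9-fold lower (29.5 to 49.5), and the delta subunit Chrnd, the gamma subunit Chrng and the receptor anchor Rapsn all met the rule as well. Musk, the kinase that assembles this synapse, stood at 86.1 CPM in MyoD and 65.0 CPM in the chimera, only 1.32-fold lower (1.24 to 1.41). The beta subunit Chrnb1 met the rule too, at 38.1 and 6.82 CPM, 5.59-fold lower (4.77 to 6.59), with 7.71 CPM in GFP. The subunit genes that met the rule thus differed by unlike amounts, each by more than the kinase that clusters them.

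Of 25 muscle metabolism genes 10 were lower, with a median of -1.66. Pgam2, the muscle phosphoglycerate mutase, stood at 93.9 CPM in MyoD and 3.24 CPM in the chimera. Pygm, the muscle glycogen phosphorylase, stood at 180 and 12.4 CPM. Ppp1r3a, a glycogen-targeting phosphatase subunit, had 180 counts in MyoD and 0 in the chimera. With the chimera set to the floor this is 61.2-fold lower (20.59 to 299.3). The other 15 of the 25 did not meet the rule, among them the widely made Ldha at 450 and 356 CPM. Muscle genes were also among them, such as Pfkm (324.5 and 124.5 CPM) and Cox8b (8.22 and 2.26 CPM). Of 17 dystrophin complex genes 5 were lower and 0 higher, and Dmd, dystrophin, stood at 85.8 and 77.9 CPM. The median of that list was -0.24.

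Of 30 myogenic regulators 7 were lower and 3 higher, with a median of -1.12. Myog (ENSMUSG00000026459), myogenin, the bHLH factor of differentiating myoblasts, stood at 95.1 CPM in MyoD (2477 counts), 58.2 CPM in the chimera (1545 counts) and 0.0486 CPM in GFP. This is 1.63-fold lower (1.53 to 1.74), a smaller difference than that of Myod1. Mef2a, another MEF2 factor, stood at 202 and 63.97 CPM. Lower by the rule were Mef2c, Vgll2, a cofactor of TEAD factors (43.7 and 2.56 CPM), Pitx3, Rbm24, Mamstr, Smyd1 and Mef2b.

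The 3 regulators that were higher in the chimera act before or beside MyoD in muscle precursors. Eya2, a transcriptional coactivator, stood at 3.07 CPM in MyoD and 40.0 CPM in the chimera, 13.0-fold higher (10.4 to 16.5). Pax3, a paired-box factor of muscle and neural crest precursors, stood at 3.11 and 22.4 CPM, and Pax7 at 0.921 and 5.35 CPM. All 3 were also higher in the NeuroD2 library than in MyoD, at 30.9, 22.2 and 2.13 CPM, so the NeuroD2 library shared the direction for these genes. Myoblast adhesion and fusion genes had 5 lower and 2 higher among 24. Mymk, the fusogen myomaker, was 7.06-fold lower (6.44 to 7.75), Cdh15, M-cadherin, 6.58-fold lower (6.29 to 6.87), and Mstn, myostatin, a brake on muscle growth, stood at 31.4 CPM in MyoD and 0.678 CPM in the chimera. The 2 that were higher were the adhesion genes Kirrel3 (1.19 and 10.2 CPM) and Cdh11 (3.3 and 15.0 CPM), with 1.99 and 9.39 CPM in GFP.

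**Figure D2:**
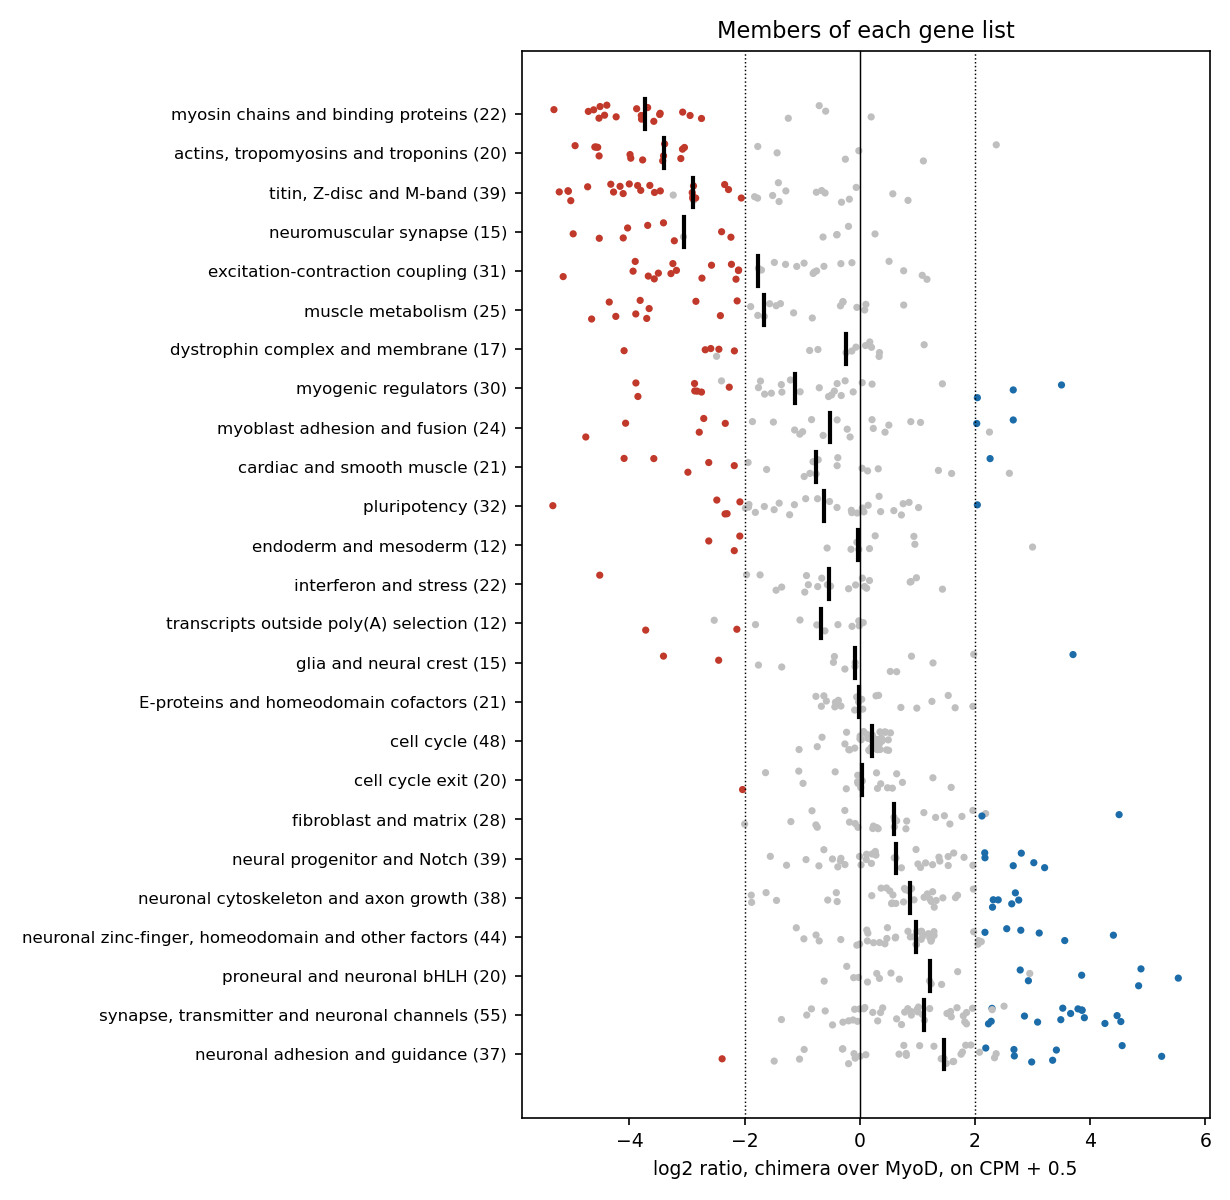
Each point is 1 measured member of a gene list, placed at its log2 ratio of chimera over MyoD on CPM + 0.5, with the number of members beside the list name and the black bar at the list median. Red points met the size rule as lower, blue as higher and grey did not, and dotted lines mark 4-fold. Medians run from -3.74 for myosin chains to 1.46 for neuronal adhesion and guidance, with myogenic regulators at -1.12 and the cell cycle at 0.21.

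Genes of neurons were on the other side. Of 130 measured members of the neuronal structure lists, 29 (22.3%) were higher in the chimera and 1 lower, with a median log2 ratio of 1.12, and the log2 ratio was above 0 in 103. Their summed level was 2975 CPM in MyoD, 5335 CPM in the chimera, 3315 CPM in GFP and 14910 CPM in NeuroD2. The sum in MyoD was below that in GFP, so part of the ratio over MyoD lies between MyoD and GFP.

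Of 20 proneural and neuronal bHLH genes 6 were higher and 0 lower. Neurod1 (ENSMUSG00000034701), a differentiation factor, stood at 0.346 CPM in MyoD (9 counts) and 38.6 CPM in the chimera (1024 counts), 112-fold higher (58.6 to 245). Nhlh1 (ENSMUSG00000051251), a factor of newborn neurons, stood at 0.845 and 39.1 CPM, 46.3-fold higher (30.4 to 74.3). Olig2, a factor of spinal progenitors, stood at 0.192 and 9.49 CPM, and Bhlhe22 at 1.23 and 11.4 CPM. Neurod4 also met the rule. The count includes Neurod2, which cannot be read as a response, because the delivered construct carries part of it. The proneural gene Neurog2, which acts at the start of neurogenesis, had 0 counts in MyoD and 3 counts in the chimera and did not meet the rule.

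Of 44 neuronal zinc-finger, homeodomain and other factors 6 were higher and 0 lower, with a median of 0.98. Ebf2, a helix-loop-helix factor of migrating neurons, stood at 2.04 CPM in MyoD and 53.1 CPM in the chimera, 26.1-fold higher (19.8 to 35.0), and its relative Ebf3 at 6.91 and 50.9 CPM. Barhl1, a homeodomain factor of dorsal spinal and cerebellar neurons, stood at 0.154 and 7.2 CPM, against 0.629 CPM in NeuroD2. St18 and the Notch ligand gene Dll3 met the rule as well. Hes6, a bHLH gene shared by muscle and nerve, lay on the other side, at 82.8 and 38.3 CPM.

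Among 37 adhesion and guidance genes 8 were higher and 1 lower. Cntn1, the axonal adhesion protein contactin, stood at 0.921 CPM in MyoD, 53.3 CPM in the chimera and 6.01 CPM in GFP, 57.8-fold higher than in MyoD (38.7 to 90.5). Robo2, a receptor for the Slit repellents, stood at 2.11 and 60.9 CPM, 28.8-fold higher (22.0 to 38.4). Ret, a receptor for glial-derived growth factors, stood at 1.31 and 13.8 CPM. Reln, the secreted guidance protein reelin, was the 1 lower gene, at 37.9 CPM in MyoD and 6.82 CPM in the chimera.

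Of 55 synapse, transmitter and channel genes 15 were higher and 0 lower. Srrm4, a regulator of neuronal microexons, stood at 2.23 CPM in MyoD and 62.6 CPM in the chimera, 28.1-fold higher (21.6 to 37.2). Elavl3, a neuronal RNA-binding protein, stood at 9.29 and 135 CPM, and Chgb, a protein of dense-core granules, at 1.42 and 36.2 CPM. Kcnd3, a potassium channel, stood at 0.269 and 16.5 CPM. Slc17a6, the vesicular transporter of glutamate neurons, stood at 0.269 and 8.14 CPM. In these 5 genes the chimera level lay below that of the NeuroD2 library, which was 127, 320, 290, 155 and 60.7 CPM in the same order.

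The cytoskeleton of the axon was closer to equal. Of 38 genes 6 were higher and 0 lower, with a median of 0.88. The median level of these genes was 22.7 CPM in MyoD, 40.1 CPM in the chimera and 52.1 CPM in GFP. Their summed level was 1832, 2922 and 2159 CPM in the same order. Part of the ratio over MyoD thus lies between MyoD and GFP. Stmn4, 1 of the 6, stood at 1.54 CPM in MyoD, 9.64 CPM in the chimera and 10.3 CPM in GFP. Dpysl3, a growth cone protein, stood at 21.7 CPM in MyoD, 150 CPM in the chimera and 70.7 CPM in GFP. Dcx, doublecortin of migrating neurons, stood at 2.65 CPM in MyoD, 19.1 CPM in the chimera, 0.681 CPM in GFP and 397 CPM in NeuroD2. Tubb3, the neuronal tubulin, stood at 148 and 284 CPM and Stmn2 at 49.9 and 109 CPM, neither past 4-fold. In GFP they stood at 110.3 and 109 CPM, so the Stmn2 level in the chimera was that of GFP. Cdk5r1, the activator of the kinase Cdk5, stood at 149 and 40.0 CPM. Progenitor and Notch genes had 6 higher and 0 lower of 39, among them Mfng, a glycosyltransferase that tunes Notch (6.8 and 67.0 CPM), and the Notch effectors Heyl and Hes5.

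**Figure D3:**
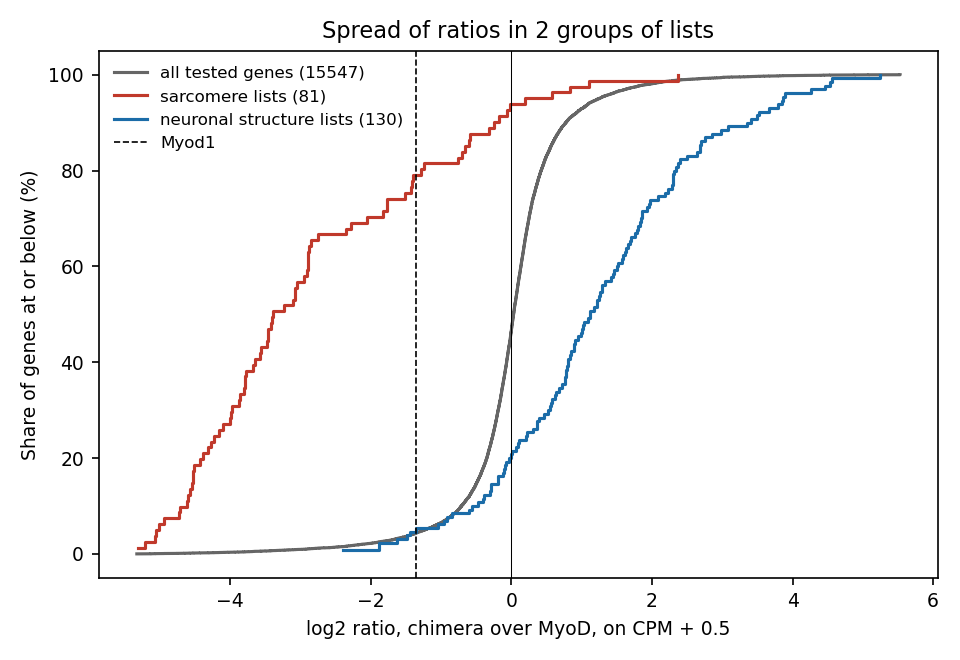
Lines give the share of genes, in percent, at or below each log2 ratio of chimera over MyoD for all 15547 tested genes, the 81 genes of the sarcomere lists and the 130 genes of the neuronal structure lists. The dashed line marks the log2 ratio of Myod1, -1.35, and 79.0% of the sarcomere genes lie below it.

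Promoter sequences are shown for 4 genes that span the comparison: Klhl40, far lower in the chimera, Myog, which did not meet the size rule, and Nhlh1 and Rgs4, far higher. Rgs4, a regulator of G-protein signalling in neurons, stood at 1.15 CPM in MyoD and 53.5 CPM in the chimera. Each is the 250 bases before the RefSeq start of the gene on build GRCm38.p6, 5′ to 3′ on the strand of the gene. Capitals mark the E-box CAGCTG, the E-box form CAGGTG or the E-box form CAGATG, searched on both strands. Other E-box forms were not searched, so a window without capitals may still hold one.
Klhl40: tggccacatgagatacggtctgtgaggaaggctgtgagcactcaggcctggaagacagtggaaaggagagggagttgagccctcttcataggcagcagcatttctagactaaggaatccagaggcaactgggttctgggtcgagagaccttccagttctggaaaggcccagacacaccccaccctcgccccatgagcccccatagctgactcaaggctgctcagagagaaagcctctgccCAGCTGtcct
Myog: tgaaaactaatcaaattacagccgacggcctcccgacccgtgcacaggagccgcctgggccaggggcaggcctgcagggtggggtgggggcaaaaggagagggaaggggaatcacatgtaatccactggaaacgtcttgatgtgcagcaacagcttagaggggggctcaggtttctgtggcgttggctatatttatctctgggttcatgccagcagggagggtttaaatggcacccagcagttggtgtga
Nhlh1: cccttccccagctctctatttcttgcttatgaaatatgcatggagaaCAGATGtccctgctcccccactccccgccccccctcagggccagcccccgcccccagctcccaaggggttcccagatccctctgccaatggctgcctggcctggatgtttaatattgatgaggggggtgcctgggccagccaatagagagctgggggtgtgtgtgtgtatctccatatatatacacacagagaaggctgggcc
Rgs4: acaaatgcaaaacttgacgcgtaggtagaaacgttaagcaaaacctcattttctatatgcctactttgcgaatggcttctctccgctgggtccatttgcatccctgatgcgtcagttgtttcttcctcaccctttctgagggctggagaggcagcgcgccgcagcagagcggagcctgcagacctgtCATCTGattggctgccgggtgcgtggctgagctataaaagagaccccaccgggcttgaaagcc
The windows are chr9:121777357-121777606, plus strand, for Klhl40, chr1:134289754-134290003, plus strand, for Myog, chr1:172057597-172057846, minus strand, for Nhlh1 and chr1:169747643-169747892, minus strand, for Rgs4. CAGCTG begins 10 bases before the start of Klhl40. CAGATG begins 203 bases before the start of Nhlh1 and, on the opposite strand, 63 bases before that of Rgs4, and the window of Myog holds none of the 3. Of 14066 promoters of the tested genes, 12.5% hold CAGCTG, 15.9% CAGGTG and 9.96% CAGATG in the same 250 bases, where a promoter may hold more than 1 of them. In the GENCODE annotation of the same assembly the Klhl40 window also lies within an exon of the gene model Gm47108, and the last 15 bases of the Myog window lie in an exon of Myog. No annotated exon overlaps the windows of Nhlh1 and Rgs4. Bases just after the RefSeq start lay in a GENCODE transcript of the same gene for Klhl40, Myog and Rgs4. They did not for Nhlh1, so its start and the distance given are less certain. A match of letters is a description and no site of binding. The 4 windows are chosen examples and do not show which form goes with higher or lower genes. Promoters were found for 142 of the 220 higher and 206 of the 297 lower genes, under 80% of each, so a comparison of E-box content between them is void.

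Other programs had list medians closer to equality than the sarcomere and neuronal structure lists, though single genes in them differed widely. Pluripotency genes of the P19 state had 5 lower and 1 higher of 32, with a list median of -0.63. The Oct4 gene Pou5f1 stood at 587 CPM in MyoD and 167 CPM in the chimera, against 1227 CPM in GFP, so both libraries kept transcripts of the starting cells. Utf1 and L1td1, markers of undifferentiated cells, were lower by the rule, and Cdh1, E-cadherin, was higher, at 7.99 and 34.4 CPM. Its GFP level was 30.7 CPM, so the chimera stood close to GFP and MyoD below both. Fgf5, a growth factor of primed pluripotent cells, stood at 39.3 CPM in MyoD and 0.49 CPM in the chimera, and its level in GFP was 0.681 CPM, so the chimera level was close to that of GFP. Of 48 cell cycle genes 0 met the rule in either direction, with a median of 0.21 and a range from -1.06 to 0.53. Cdkn1a, the inhibitor p21 that rises as myoblasts leave the cycle, stood at 187 CPM in MyoD, 59.9 CPM in the chimera and 8.51 CPM in GFP. Its relative Cdkn1c was the 1 of 20 cell cycle exit genes that met the rule, as lower.

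Markers of other cell types moved in part with the comparison. Of 21 cardiac and smooth muscle genes 5 were lower and 1 higher. Acta2, smooth muscle actin, stood at 888 CPM in MyoD and 112 CPM in the chimera, and Tagln, another smooth muscle gene, at 5.95 and 30.4 CPM, with 108 CPM in GFP. The list summed to 1424 CPM in MyoD and 524 CPM in the chimera. Of 28 fibroblast and matrix genes 2 were higher, the mesenchymal receptor gene Pdgfra at 1.69 and 49.1 CPM and Col5a1, and the list summed to 1364 and 1933 CPM. Of 15 glia and neural crest genes 1 was higher, the glutamate transporter Slc1a2 (2.99 and 45.0 CPM), and Erbb3 and Foxd3 were lower. Erbb3 is also counted among the neuromuscular synapse genes. Of 12 endoderm and mesoderm genes Gata4, Gata6 and T were lower and 0 higher. Of 21 E-proteins and homeodomain cofactors 0 met the rule. The part of such cells in the results was not tested.

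Libraries also differed in transcripts that poly(A) selection should leave out. Of 12 such genes 11 were below MyoD and 2 met the rule, Rn7s6, a 7S RNA gene (13.52 CPM in MyoD and 0.565 CPM in the chimera), and Hist1h1e, a histone gene. They summed to 65.7 CPM in MyoD, 26.4 CPM in the chimera and 68.7 CPM in GFP. Of 22 interferon and stress genes only Rsad2, an interferon-induced gene, met the rule, at 24.7 and 0.603 CPM. The part of library preparation in the results was not tested.

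Against the same MyoD library, the chimera at MOI 100 gives a second set of values in which the amount of Myod1 lay on the other side, at 555 CPM against 296 CPM. The sarcomere lists then had a median of -2.71, with 52 of 81 genes lower and 1 higher. In that comparison 2.3% of all tested genes were lower and 3.9% higher. The neuronal structure lists had a median of 2.26, with 68 of 130 higher and 1 lower. Both comparisons share the MyoD library, so they are given side by side only. Klhl40 stood at 1.11 CPM in the chimera at MOI 100 and 1.28 CPM without the label, and Sln at 0.694 and 0.527 CPM, all far under MyoD. Mef2c stood at 41.5 and 26.0 CPM and Myh3 at 150 and 132 CPM. Other muscle genes lay nearer to MyoD at MOI 100. Atp2a1 stood at 355 and 111 CPM (480 CPM in MyoD) and Ttn at 438 and 209 CPM (598 CPM in MyoD). The median of excitation-contraction coupling was -1.09 at MOI 100 and -1.76 without the label, and that of myogenic regulators -0.35 and -1.12. The dystrophin complex list moved the other way, at -0.73 and -0.24. Myog lay on the other side of MyoD, at 197 CPM at MOI 100, above the 95.1 CPM of MyoD.

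**Figure D4:**
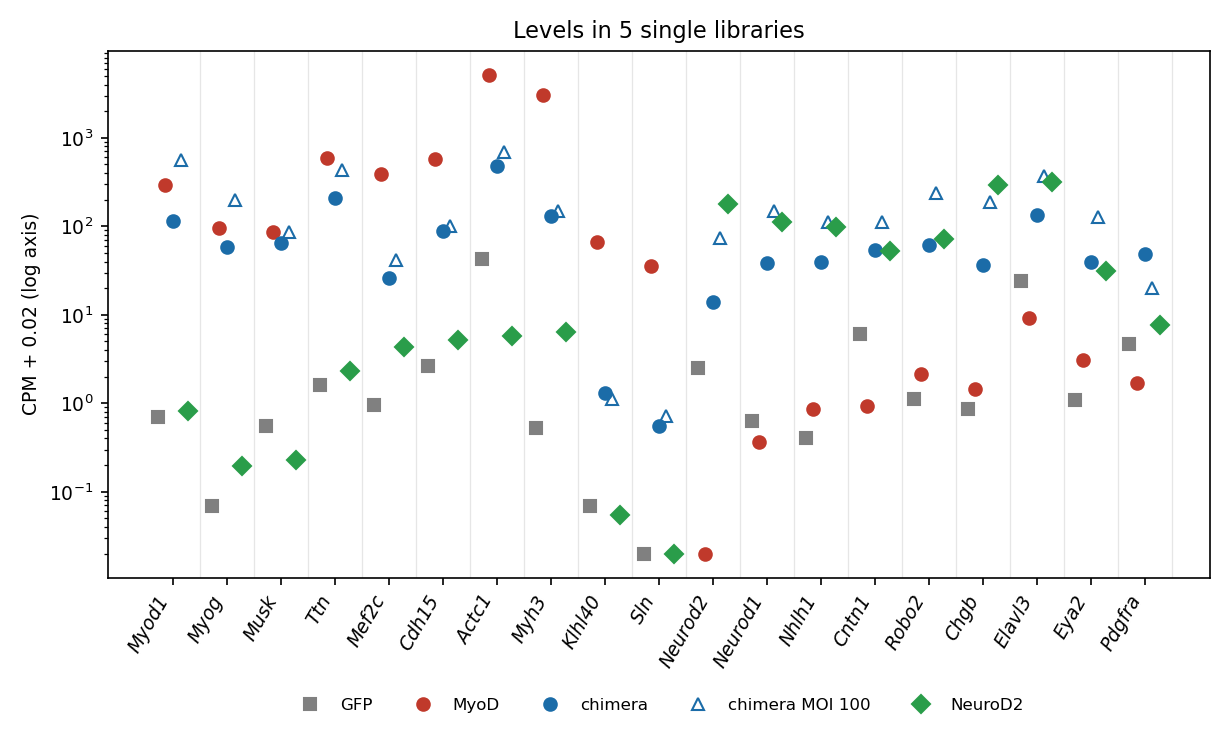
Points are CPM + 0.02 on a log axis for 19 genes in 5 single libraries (GFP, MyoD, chimera, chimera at MOI 100 and NeuroD2), with no error bars because each library has no replicate. Sln and Klhl40 lie at 36.0 and 65.9 CPM in MyoD and at or under 1.28 CPM in both chimera libraries, while Neurod1, Nhlh1, Cntn1 and Robo2 lie at or under 2.11 CPM in MyoD and at 38.6 to 60.9 CPM in the chimera.

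Outside the lists, 165 of the higher and 177 of the lower genes were found. Ranked by the end of the interval closest to equality, the first 20 included Sez6l, a neuronal membrane protein, at 0.23 CPM in MyoD and 32.6 CPM in the chimera, and Sstr2, a somatostatin receptor, at 0.269 and 25.5 CPM. Nrp2, a semaphorin receptor, stood at 4.34 and 104 CPM, and Sim1, a bHLH-PAS factor of hypothalamic and spinal neurons, at 0.614 and 23.7 CPM. Fxyd7, a sodium pump regulator, stood at 8.97 CPM in the chimera, 0.0384 CPM in MyoD and 0.384 CPM in NeuroD2, and Evi2a at 12.02, 0.192 and 0.0349 CPM. Evi2a and its neighbour Evi2 gave near-identical values and may share reads. Tmem132c, ranked first, stood at 0.0384 CPM in MyoD and 14.2 CPM in the chimera, and Grhl3 at 0.538 and 19.8 CPM. The first 20 on the lower side included Dhrs7c, a sarcoplasmic reticulum enzyme, at 23.7 CPM in MyoD and 0.188 CPM in the chimera, and Alpk3, a muscle alpha-kinase, at 51.2 and 0.98 CPM. Lmcd1, a LIM-domain protein of muscle, stood at 109 and 2.75 CPM, and the small heat shock genes Hspb2 and Hspb3 were lower. So were Fgf6, a growth factor of the myogenic lineage (74.9 and 1.73 CPM), and the homeobox gene Hoxd9. F2 (11.3 and 0.113 CPM), Cfap52 (52.0 and 1.51 CPM) and Trp63 (7.1 and 0.151 CPM) were lower as well.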

How the data were processed

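RNA of 8 single cultures was measured, of which the MyoD and chimera libraries are compared here. The authors deposited raw counts of reads per Ensembl gene, whole numbers for 37558 genes. Per the submitters' processing notes, CASAVA 1.8.2, TopHat2 2.0.8 and build mm9 were used. How reads were assigned to genes, by which tool, annotation or strand rule, is not given in the sources used here. Values of overlapping, antisense or near-identical genes are uncertain for that reason. Poly(A) selection, per the labels' protocols, leaves out transcripts without a tail, and a gene's count mixes delivered with endogenous transcripts.

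The library totals were 27754554 counts for MyoD and 26410500 for the chimera, and 3 counts, the floor for a count of 0, equal 0.115 and 0.113 CPM. Totals ran up to 43984066 in the series. Counts were scaled to CPM after TMM over 8 libraries (edgeR 4.0.16, R 4.3.3). Symbols were matched by Ensembl identifier for 32850 genes (87.5%). Genes without a symbol held 1.43% of the counts in MyoD and 1.36% in the chimera. No test was made, with 1 library a side. Ratios of CPM carry exact conditional binomial (Clopper-Pearson) 95% intervals, which cover counting error only, since PCR reads are not independent molecules. Steps were tested on simulated data.

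Members and the 26 gene lists were chosen with earlier results of these data known. Some genes are in more than 1 list, such as Smyd1, Erbb3 and Dll3, so the counts of different lists are not independent. Named genes are Myod1, Neurod2, the 3 markers, list members, and outside the lists the 20 highest and 20 lowest ranked by the end of the interval closest to equality, skipping predicted models. Mitochondrial transcripts, 1 of the lists, had no matched gene. Scalings by DESeq2 1.42.0 size factors, by totals and by TMM over 2 libraries, another pseudocount, other filters and an 8-fold threshold were tried. Promoters are from RefSeq (GRCm38.p6), matched by symbol for 10960 of 15547 tested genes. Calculations ran in Python 3.11.15 with scipy 1.17.1, pandas 2.3.3 and numpy 2.4.6, and plots were drawn with matplotlib 3.10.9. A few list members are counted but not reported by name here.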

Additional observations from a re-analysis of the deposited data

How the results depend on the processing

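The counts of 220 higher and 297 lower genes stayed within 1.5 times under DESeq2 size factors, total gene counts, TMM over 2 libraries, both other filters, no minimum level and the interval rule. With a pseudocount of 2 CPM, 123 genes were higher and the sarcomere median was -2.88, because a larger pseudocount shrinks the ratios of low genes. With an 8-fold threshold 88 genes were higher and 140 lower. The neuronal median stayed between 0.92 and 1.26 in every setting. No direction changed in the 4 main values or in the 7 genes followed under each scaling (Myod1, Neurod2, Sln, Klhl40, Mef2c, Myog and Rn7s6). Under total gene counts the log2 ratios of Myod1 (-1.353 to -1.254) and Myog (-0.704 to -0.605) moved past their counting intervals. Under total gene counts the medians of 2 lists near 0 changed sign, E-proteins and homeodomain cofactors (-0.02 to 0.08) and endoderm and mesoderm (-0.04 to 0.03). No paired analysis was possible because each group had 1 library, and no library could be left out. A second culture was not measured, and depth limits genes of few counts, whose intervals are wide.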

Other observations

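Genes of FGF signalling and the ERK pathway were listed after their values had been seen, so their count describes these libraries and supports nothing. Of the 25, 9 met the size rule as lower, 0 as higher and 16 did not meet it, and 6 had a log2 ratio above 0. Beside the ligand genes Fgf5 and Fgf6, the lower ones were the ETS factor genes Etv1, Etv4 and Etv5, the feedback inhibitor genes Spry1, Spry2 and Spry4, and Dusp6, an ERK phosphatase gene. Etv5 stood at 333 CPM in MyoD, 14.01 CPM in the chimera and 63.3 CPM in GFP. Spry4 stood at 51.8 CPM in MyoD, 1.85 CPM in the chimera and 1.9 CPM in GFP, and Dusp6 at 124, 18.3 and 23.1 CPM. The 4 receptor genes did not meet the rule: Fgfr1 stood at 188 CPM in MyoD and 193 CPM in the chimera, and Fgfr4 at 6.34 and 20.4 CPM. In the chimera at MOI 100 the levels were 19.96 CPM for Etv5, 5.1 CPM for Spry4 and 29.95 CPM for Dusp6. Etv1 stood at 28.0 CPM in MyoD, 2.34 CPM in the chimera and 14.4 CPM in the chimera at MOI 100, and Egr1, an early response gene, at 70.8, 17.7 and 58.6 CPM.

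One gene of high level stood apart on the upper side and was picked out after its values were seen. Nnat, the imprinted neuronal membrane protein neuronatin, stood at 265 CPM in MyoD and 2001 CPM in the chimera, 7.55-fold higher (7.36 to 7.74), with 128 CPM in GFP and 3792 CPM in NeuroD2.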
